A study of Mus musculus with 21 samples.

Results

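Nuclear genes for the oxidative phosphorylation (OXPHOS) machinery were followed across sorted mouse marrow progenitors with and without the cohesin subunit Stag2. They were taken by gene symbol: every row that begins with Nduf, Uqcr, Atp5 or Cox4 to Cox8, together with Sdha, Sdhb, Sdhc, Sdhd, Cyc1 and Cycs, and without symbols marked as pseudogenes. This gave 93 genes of the 30733 in the table: 38 of complex I, 4 complex I assembly factors, 4 of complex II, 9 of complex III, cytochrome c, 19 of complex IV and 18 of complex V. The prefix also takes in other genes that are not subunits, among them Cox4nb, a neighbour of Cox4i1 now called Emc8, and Atp5s and Atp5sl, now called Dmac2l and Dmac2. Ndufa4 was kept under complex I by its symbol, although its protein is now assigned to complex IV.

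Electrons from NADH enter the respiratory chain at complex I and those from succinate at complex II, which is also a citric acid cycle enzyme. Complex III passes them to cytochrome c, complex IV hands them to oxygen, and complex V uses the proton gradient built on the way to make ATP. Most subunits are encoded in the nucleus and a minority, together with the mitochondrial ribosomal and transfer RNAs, in the mitochondrial genome. Erythroid progenitors need mitochondria for heme synthesis, which starts and ends in that organelle, while mature neutrophils are known to rely largely on glycolysis.

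The study asked how loss of Stag2 changes transcription in 3 lineage-depleted and sorted populations of mouse bone marrow. LSK cells are stem and multipotent progenitors (3 libraries labelled Stag2 KO and 4 labelled WT), GMP are granulocyte and monocyte progenitors (4 KO and 3 WT) and CFU-E are erythroid progenitors (4 KO and 3 WT). The labels give no Cre driver, allele, age or strain, and nothing says that the replicates came from separate animals, so a p-value here reflects library-to-library spread only. GMP and CFU-E libraries hold 3′ ends of transcripts and LSK libraries full transcripts, so LSK levels were not set against the other populations.

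Total counts ran from 22813333 to 32196233 in LSK, 1250683 to 4401993 in GMP and 3654667 to 5550165 in CFU-E libraries. Stag2 was at 67.8 to 79.9 CPM, a count scaled to the size of its library, in LSK KO against 148.0 to 187.0 in WT, and at 37.5 to 68.4 in CFU-E KO against 113.3 to 146.1 in WT. In GMP it was at 88.6 to 154.5 in libraries labelled KO and at 112.9 to 226.1 in WT, so its level did not separate the GMP groups, and a direction in GMP is that between labels. The CFU-E groups were separated by it, and why the GMP groups were not was not tested. The 10 erythroid markers summed to between 6327 and 7838 CPM in CFU-E and to between 218.2 and 330.8 in GMP, and the 8 GMP markers to between 27.1 and 131.9 CPM in CFU-E and between 22582 and 62677 in GMP. The 5 mature neutrophil transcripts examined (S100a8, S100a9, Ngp, Ltf and Camp) summed to between 174526 and 236038 CPM in GMP WT, so they held a large share of those libraries, and to between 255.1 and 730.7 in CFU-E. Levels are CPM scaled by trimmed mean of M values (TMM) factors, with 1 set of factors for GMP and CFU-E together and 1 for LSK. In bulk RNA, fewer cells of a type and less RNA per cell cannot be told apart.

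WT CFU-E and WT GMP differed in individual OXPHOS genes of both directions rather than in all of them together. Of the 93 genes, 86 passed the filter on low counts and were tested. In CFU-E, 15 were higher and 13 lower, and 58 did not pass the threshold (edgeR quasi-likelihood test over 10329 genes, adjusted p under 0.05). Over all genes tested, 52.4% passed it, 25% higher and 27.3% lower, against 32.6% of the OXPHOS genes. Their median log2 fold change was 0.046, beside 0.032 over all genes, and their median absolute log2 fold change was 0.37, beside 0.71. CFU-E and GMP libraries did not overlap for 38 of the 86, 21 of them higher in CFU-E and 17 lower, where the shares over all genes were 60.2%, 31.4% and 28.8%.

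The direction counts depended on the scaling and on single libraries. With total counts alone, without TMM, 40 OXPHOS genes were called higher and 4 lower, while the median of all genes moved to 0.49 and that of the OXPHOS genes to 0.52, so relative to all genes they stood about where they did before. Without GMP WT 1, 23 were called lower, without GMP WT 2, 9 were called higher, and without CFU-E WT 3, the only WT CFU-E library on the other flow cell, 7 were called lower. Of the 28 genes called, 13 were called in every one of the 17 settings tried: Ndufs1, Ndufab1, Ndufa5, Ndufaf1, Ndufaf4, Uqcrc2, Cox6b2, Atp5f1 and Atp5g1, which were higher in CFU-E, and Ndufb3, Ndufb7, Ndufb11 and Ndufv3, which were lower. In this comparison, flow cell A alone and the removal of CFU-E WT 3 are the same fit. It is counted under both names, here and in the counts of alternatives below.

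**Figure D1:**
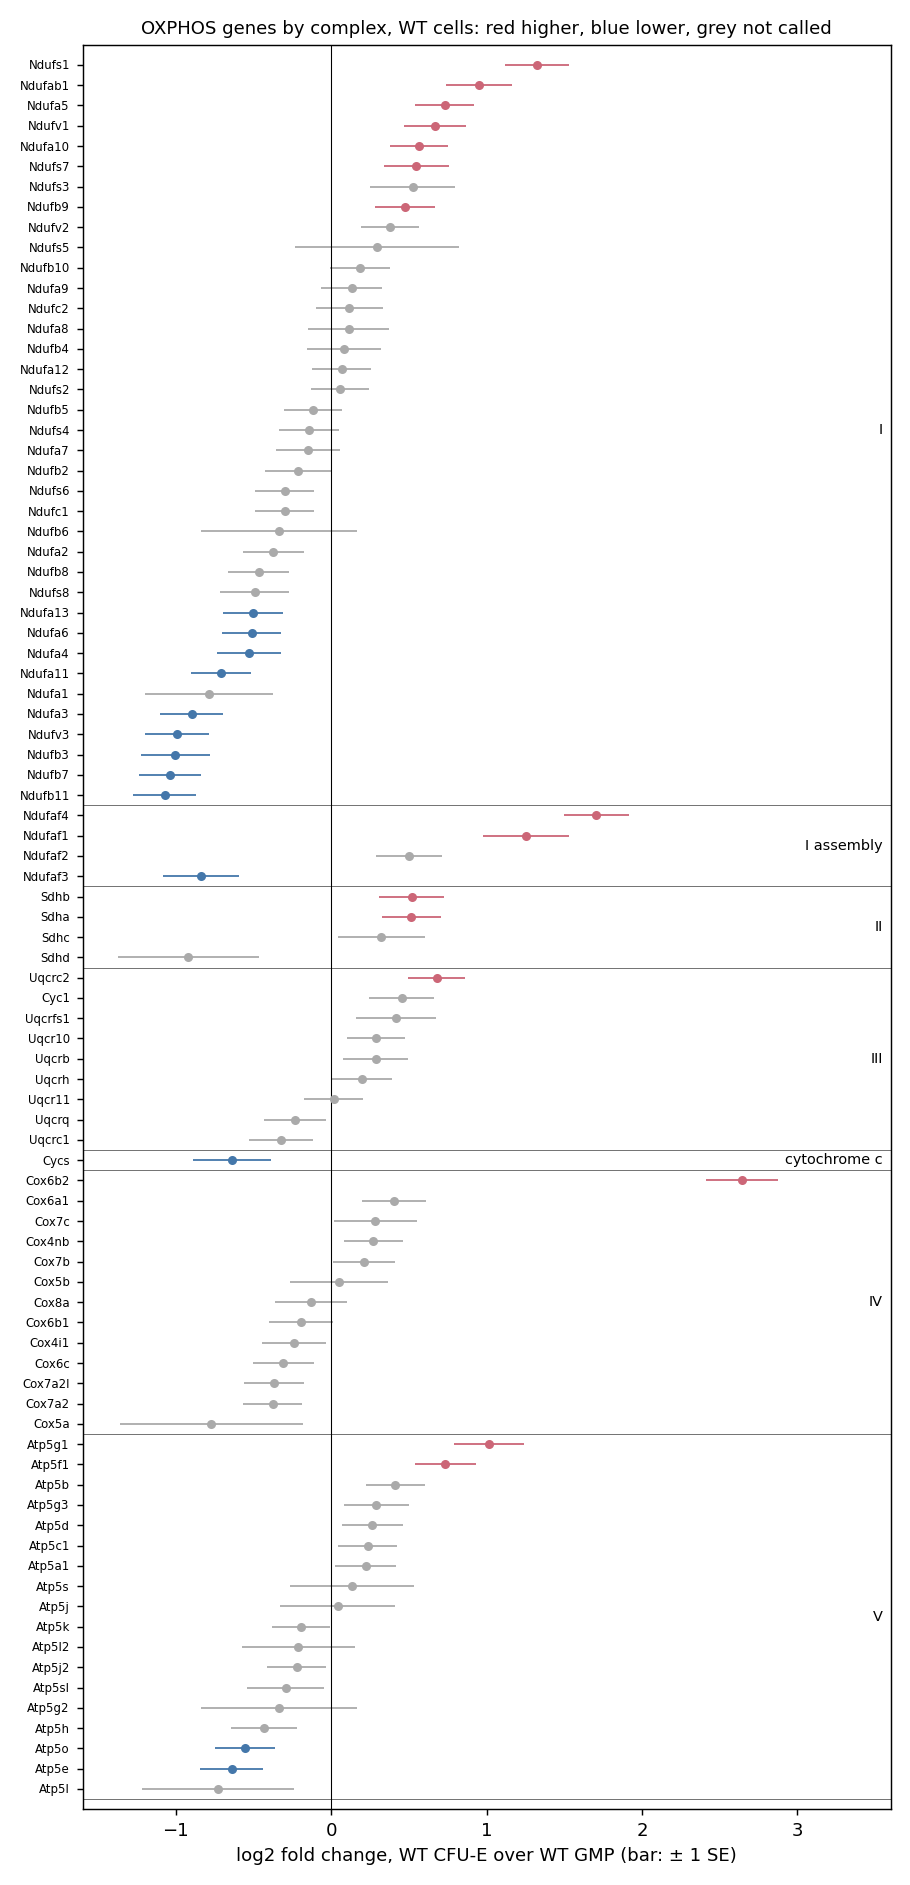
Log2 fold change of the 86 tested OXPHOS genes in WT CFU-E over WT GMP (x axis; bars are 1 SE), grouped by complex. Red marks the 15 genes called higher and blue the 13 called lower. Complex I spreads from -1.07 to 1.32 with calls at both ends, and Cox6b2 of complex IV stands apart at 2.65.

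Promoters of 6 OXPHOS genes called in the WT comparison are shown, 250 bases before to 50 bases after the RefSeq start on GRCm38.p6: those with the largest changes, Cox6b2 and Ndufaf4, and 4 with smaller changes in either direction that hold 1 or more of the cores searched, all chosen after their values were seen. Of the 93 genes, 75 matched the promoter table, with 81 promoters. NRF1 and the ETS factor GABP, known activators of nuclear respiratory genes, and YY1 were looked for by short cores on both strands. The NRF1 core GCGCATG was in 15 of the 81 promoters (18.5%), against 3.91% of all 32851 promoters of that length. The ETS core CCGGAAG was in 17 (21.0%, against 8.86%) and the YY1 core AAGATGGC in 12 (14.8%, against 2.75%). At least 1 of the 3 cores, whose matches may overlap, was in 36 (44.4%, against 14.2%). A match is a description of the letters and was not tested as a site. In the sequences that follow, capitals mark these cores, read on either strand, so CATGCGC is the NRF1 core on the other strand.
Cox6b2 promoter: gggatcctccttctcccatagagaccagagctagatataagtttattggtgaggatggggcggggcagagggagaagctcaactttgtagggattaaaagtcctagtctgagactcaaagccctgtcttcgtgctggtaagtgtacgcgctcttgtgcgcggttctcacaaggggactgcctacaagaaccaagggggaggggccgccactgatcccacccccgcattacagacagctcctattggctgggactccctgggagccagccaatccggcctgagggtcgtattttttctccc
Ndufaf4 promoter: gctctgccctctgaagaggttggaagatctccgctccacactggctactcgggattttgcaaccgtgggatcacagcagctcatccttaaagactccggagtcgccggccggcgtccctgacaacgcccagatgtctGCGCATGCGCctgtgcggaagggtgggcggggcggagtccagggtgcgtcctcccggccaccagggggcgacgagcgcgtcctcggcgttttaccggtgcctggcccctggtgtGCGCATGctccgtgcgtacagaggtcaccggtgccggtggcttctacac
Ndufb7 promoter: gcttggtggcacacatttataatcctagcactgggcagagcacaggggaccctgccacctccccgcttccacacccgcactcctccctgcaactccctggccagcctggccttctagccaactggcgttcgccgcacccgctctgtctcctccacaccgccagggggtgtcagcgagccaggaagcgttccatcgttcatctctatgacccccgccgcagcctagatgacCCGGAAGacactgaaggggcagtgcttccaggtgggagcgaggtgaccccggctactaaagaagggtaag
Sdhb promoter: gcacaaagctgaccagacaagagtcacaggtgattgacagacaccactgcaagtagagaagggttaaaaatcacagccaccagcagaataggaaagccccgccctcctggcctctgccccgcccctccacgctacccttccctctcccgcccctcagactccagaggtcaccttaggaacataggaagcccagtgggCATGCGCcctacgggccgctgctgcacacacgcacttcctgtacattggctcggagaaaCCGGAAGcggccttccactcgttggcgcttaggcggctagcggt
Ndufa3 promoter: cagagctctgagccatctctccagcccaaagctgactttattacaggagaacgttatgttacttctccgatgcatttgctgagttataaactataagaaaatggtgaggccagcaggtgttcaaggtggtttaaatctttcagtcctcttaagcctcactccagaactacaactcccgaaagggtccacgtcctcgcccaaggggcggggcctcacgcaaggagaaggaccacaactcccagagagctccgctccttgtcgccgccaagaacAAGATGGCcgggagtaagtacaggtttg
Cycs promoter: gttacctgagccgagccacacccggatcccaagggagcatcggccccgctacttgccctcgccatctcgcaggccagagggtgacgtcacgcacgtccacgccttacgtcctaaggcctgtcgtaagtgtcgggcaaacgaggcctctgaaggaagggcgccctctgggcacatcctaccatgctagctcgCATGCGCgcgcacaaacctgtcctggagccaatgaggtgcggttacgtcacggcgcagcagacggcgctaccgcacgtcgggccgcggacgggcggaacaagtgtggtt
The Cox6b2 promoter (chr7:4753045-4753344, minus strand), of the gene with the largest change, held none of the 3 cores in this window. That of Ndufaf4 (chr4:24897833-24898132, plus strand), the next in size, held the NRF1 core 3 times, the first pair overlapping as a palindrome. Ndufb7 (chr8:83566508-83566807, plus strand) and Ndufa3 (chr7:3617123-3617422, plus strand), both lower in CFU-E, held an ETS and a YY1 core. Sdhb (chr4:140961021-140961320, plus strand) and Cycs (chr6:50566520-50566819, minus strand) went in opposite directions between the populations and each held an NRF1 core, Sdhb with an ETS core as well.

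Complex I, which has the most genes, also had the most calls in either direction. Of its 37 tested genes, 7 were higher in CFU-E, 9 lower and 21 not called, with a median log2 fold change of -0.14. The share called was 43.2%, beside 52.4% of all genes. Ndufs1, the largest core subunit, with iron-sulfur clusters of the electron path, was at 131.7, 125.8 and 132.0 CPM in WT CFU-E 1 to 3 and at 56.8, 52.9 and 41.4 in WT GMP 1 to 3. Every CFU-E library lay above every GMP library, a 2.50-fold difference (log2 fold change 1.32 ± 0.207 SE, edgeR adjusted p = 1.65e-05). Ndufv1, the core subunit that binds NADH, was at 181.4 ± 21.1 CPM in CFU-E (SD, n = 3) and 111.7 ± 18.8 in GMP (n = 3), a log2 fold change of 0.67 (edgeR adjusted p = 0.00792; 0.0627 without GMP WT 2). Ndufab1, the mitochondrial acyl carrier protein, rose 1.93-fold, from 37.6 ± 3.64 to 74.7 ± 8.37 CPM. Ndufa5, an accessory subunit of the matrix arm, rose 1.66-fold, from 412.7 ± 45.1 to 705.3 ± 65.5 CPM.

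Among the accessory subunits of the membrane arm, several were lower. Ndufb11 was at 77.8, 71.7 and 58.3 CPM in WT CFU-E and at 122.6, 146.7 and 157.6 in WT GMP. The groups did not overlap, and the level in CFU-E was 2.10-fold lower (log2 fold change -1.07 ± 0.202 SE, edgeR adjusted p = 0.000148). Ndufb7 was at 209.3, 191.9 and 210.8 CPM in WT CFU-E and at 309.8, 426.2 and 490.2 in WT GMP. Its CFU-E libraries were tight and all below the GMP libraries, which were spread (log2 fold change -1.04 ± 0.199 SE, edgeR adjusted p = 0.000173). Ndufb3, at 111.8 ± 20.1 CPM in CFU-E and 219.4 ± 58.8 in GMP, and Ndufv3, of the NADH-binding arm, at 72.2 ± 2.64 and 140.6 ± 32.7 CPM, were also lower without overlap (edgeR adjusted p = 0.000707 and 0.000395). The other complex I genes called, named here after their values were seen, were Ndufa10, Ndufs7 and Ndufb9 among the higher (log2 fold changes 0.56, 0.55 and 0.47) and Ndufa3, Ndufa11, Ndufa13, Ndufa6 and Ndufa4 among the lower (-0.90, -0.71, -0.50, -0.51 and -0.53). Of these, Ndufa4 overlapped between the groups, and its call was lost in 10 of 16 alternatives, for example without CFU-E WT 3 (log2 fold change -0.42, edgeR adjusted p = 0.173).

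The complex I assembly factors, which build the complex but are not part of it, had 3 of 4 members called, where 52.4% of all genes were. Ndufaf4 was at 152.4, 142.9 and 156.0 CPM in WT CFU-E and at 47.8, 49.6 and 36.8 in WT GMP. The groups were far apart, and CFU-E stood 3.27-fold higher (log2 fold change 1.71 ± 0.207 SE, edgeR adjusted p = 6.04e-07). Ndufaf1 rose 2.38-fold, from 10.2 ± 2.11 to 25.2 ± 2.30 CPM. Ndufaf3 went the other way, at 20.2 ± 2.17 CPM in CFU-E and 35.4 ± 6.80 in GMP (log2 fold change -0.84, edgeR adjusted p = 0.00724), a call lost with total counts alone (-0.38). The fourth, Ndufaf2, had a log2 fold change of 0.50 and an adjusted p of 0.0542 by edgeR. The 4 summed to 249.6 ± 9.99 CPM in CFU-E (SD, n = 3) and 127.2 ± 3.82 in GMP (n = 3).

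Complex II, succinate dehydrogenase, was higher in its catalytic part, with 50% of its 4 genes called beside 52.4% of all genes. Sdha, the flavoprotein that oxidises succinate, was at 250.2, 246.2 and 253.1 CPM in WT CFU-E and at 193.4, 160.9 and 154.9 in WT GMP. All CFU-E libraries lay above all GMP libraries, a 1.43-fold difference (log2 fold change 0.52 ± 0.190 SE, edgeR adjusted p = 0.0279), but the call was lost without GMP WT 2, CFU-E WT 1, CFU-E WT 2 or CFU-E WT 3 (adjusted p = 0.115, 0.0636, 0.0771 and 0.0692). Sdhb, the iron-sulfur subunit, was at 311.6, 315.5 and 217.5 CPM in WT CFU-E and at 157.7, 195.3 and 224.9 in WT GMP. CFU-E WT 3 fell within the GMP range, and the call (log2 fold change 0.52 ± 0.208 SE, edgeR adjusted p = 0.0425) was lost in 9 of 16 alternatives, among them without GMP WT 1 or 2 and without CFU-E WT 1 or 2 (adjusted p = 0.125, 0.130, 0.133 and 0.174). The membrane anchors were not called: Sdhc overlapped, at 186.8 ± 50.7 CPM in CFU-E and 146.5 ± 67.5 in GMP, and Sdhd was low in these 3′ libraries, at 2.11 to 4.82 and 3.43 to 7.93 CPM. Among the alternatives, Sdhd was called lower only when GMP WT 1 or CFU-E WT 1 was left out (log2 fold change -1.22 and -1.38).

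In complex III, 1 of 9 genes was called (11.1%, beside 52.4% of all genes). Uqcrc2, a core protein of the matrix side, was at 298.4, 292.2 and 281.5 CPM in WT CFU-E and at 169.8, 174.8 and 185.9 in WT GMP. Both groups were tight and did not overlap (log2 fold change 0.68 ± 0.183 SE, edgeR adjusted p = 0.00377). Its partner Uqcrc1, named after its values were seen, did not move the same way, with a log2 fold change of -0.32 (edgeR adjusted p = 0.196). Cyc1, the cytochrome c1 that passes electrons on, was at 175.3 ± 23.6 CPM in CFU-E and 125.5 ± 31.1 in GMP (log2 fold change 0.45, edgeR adjusted p = 0.0776), and was called without GMP WT 3 (0.62, adjusted p = 0.0172). Cycs, cytochrome c itself, was at 27.7, 24.7 and 25.5 CPM in WT CFU-E and at 50.7, 37.3 and 29.2 in WT GMP. The groups did not overlap, although GMP WT 3 came close to CFU-E (log2 fold change -0.64 ± 0.252 SE, edgeR adjusted p = 0.0393), and the call was lost in 11 of 16 alternatives, including the removal of GMP WT 1, GMP WT 2, CFU-E WT 1, CFU-E WT 2 or CFU-E WT 3 (adjusted p = 0.157, 0.0680, 0.0758, 0.107 and 0.0998). Cycs has many processed copies in the genome, and how reads that match several of them were counted is not given, so its level is uncertain.

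Complex IV, cytochrome c oxidase, had 13 genes tested and only 1 called (7.69%, beside 52.4% of all genes). Cox6b2, known as the testis form of a subunit that faces the intermembrane space, was at 103.2, 140.5 and 163.9 CPM in WT CFU-E and at 21.4, 22.5 and 19.5 in WT GMP. Every CFU-E library was far above the GMP libraries, 6.26-fold on average (log2 fold change 2.65 ± 0.234 SE, edgeR adjusted p = 5.73e-09). This was the largest change among the OXPHOS genes in the comparison, and it ranged from 2.52 to 2.83 when single libraries were left out. The ubiquitous form, Cox6b1, was at 572.1 ± 50.5 CPM in CFU-E and 639.7 ± 156.4 in GMP and overlapped (log2 fold change -0.19, edgeR adjusted p = 0.453).

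The other subunits with tissue forms were present as their ubiquitous form. Cox4i1, Cox6a1, Cox7a2, Cox7a2l (a relative of Cox7a2 and not itself a tissue form) and Cox8a were at means of 183.3 to 411.2 CPM in CFU-E and 230.5 to 428.3 in GMP. Their log2 fold changes were -0.24, 0.41, -0.38, -0.37 and -0.13, none past the threshold. With total counts alone Cox4i1, Cox6b1, Cox7a2, Cox7a2l and Cox8a turned positive. Single libraries also decided some calls: without GMP WT 1, Cox4i1 and Cox7a2 were called lower (log2 fold change -0.46 and -0.50), and without GMP WT 3, Cox6a1 was called higher (0.61). The heart, muscle, lung and testis forms, and Ndufa4l2, a relative of Ndufa4, were too low to test. Cox4i2, Cox6a2, Cox7a1 and Ndufa4l2 reached at most 1.32, 1.22, 6.35 and 0.720 CPM in any GMP or CFU-E library. Cox7b2, Cox8b and Cox8c had 0 counts in all 14 of those libraries, which together allow at most 0.0543 CPM (3 counts of 55278814, counting error only).

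Complex V, ATP synthase, had 2 genes higher, 2 lower and 14 not called (22.2% called, beside 52.4% of all genes). Atp5g1, which encodes the same mature c-ring subunit as Atp5g2 and Atp5g3, was at 76.1, 88.6 and 112.2 CPM in WT CFU-E and at 35.7, 42.6 and 55.4 in WT GMP. The groups did not overlap, and CFU-E stood 2.02-fold higher (log2 fold change 1.02 ± 0.224 SE, edgeR adjusted p = 0.000684). The other c-ring genes, given after their values were seen, were at 1637 and 1310 CPM for Atp5g3 and at 2.18 and 2.64 CPM for Atp5g2 in CFU-E and GMP, with log2 fold changes of 0.29 and -0.33 (neither called by edgeR). Atp5f1, of the stalk that holds the enzyme still, rose 1.66-fold, from 130.5 ± 16.6 to 223.6 ± 21.0 CPM. Atp5e, of the rotor, was at 314.1 ± 30.9 CPM in CFU-E and 479.5 ± 111.9 in GMP, and Atp5o, of the stalk, at 526.4 ± 50.4 and 753.4 ± 75.9 (log2 fold changes -0.64 and -0.56, edgeR adjusted p = 0.0120 and 0.0205). Both calls were lost without CFU-E WT 3 (adjusted p = 0.0751 and 0.0966), and that of Atp5o also without CFU-E WT 1 (0.0969).

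**Figure D2:**
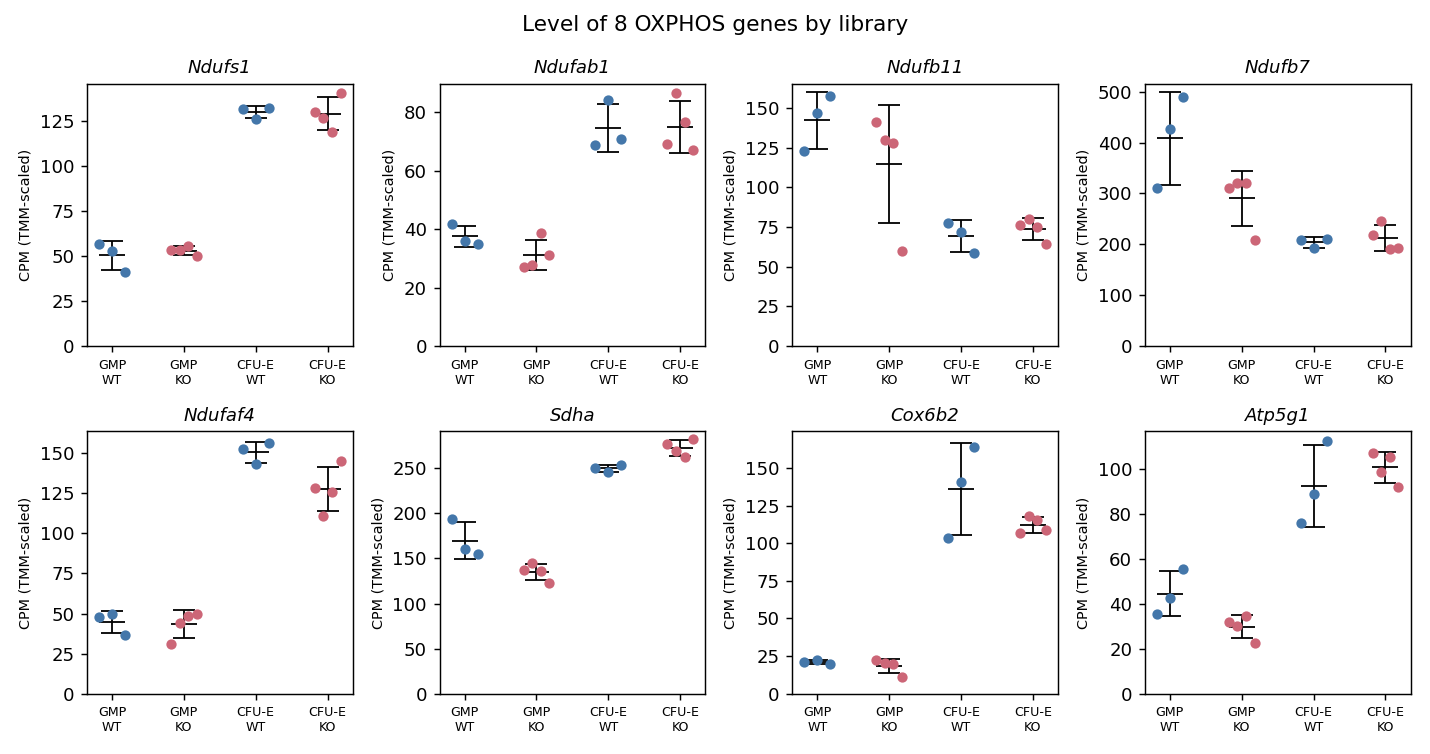
CPM of 8 OXPHOS genes in each GMP and CFU-E library (points; blue WT, red KO), with the mean and 1 SD; each y axis starts at 0. For Ndufs1, Ndufab1, Ndufaf4, Sdha, Cox6b2 and Atp5g1 the CFU-E points lie above the GMP points, and for Ndufb7 and Ndufb11 WT CFU-E lies below WT GMP, while GMP KO 4 is the lowest GMP library for Ndufb7, Ndufb11, Sdha, Cox6b2 and Atp5g1.

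A few genes varied several-fold between libraries of 1 group in the 3′ libraries, so a difference in them was hard to detect. They are given here after their values were seen. Ndufa1, an essential subunit of complex I, was at 47.3, 232.9 and 210.6 CPM in WT GMP and at 162.7, 76.3 and 50.4 in WT CFU-E. Cox5a, a matrix-side subunit of complex IV, was at 1.85, 37.7 and 30.4 CPM in WT GMP and at 24.7, 4.58 and 12.4 in WT CFU-E. The libraries that are low differ between the populations, and neither gene was called (log2 fold change -0.79 and -0.77, edgeR adjusted p = 0.116 and 0.283).

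The rest of the mitochondrial machinery was counted from lists of symbols. In WT CFU-E over WT GMP, where 25% of all genes were higher and 27.3% lower, 19 of 71 tested mitochondrial ribosomal protein genes were higher and 2 lower (median log2 fold change 0.34), led by Mrpl52 (2.60), so the share higher was near that over all genes. Of 16 import genes, 6 were higher and 0 lower (median 0.40), with the small intermembrane chaperone Timm10 at 1.72 and Timm9 at 1.27. Of 16 genes of the citric acid cycle and pyruvate dehydrogenase, 6 were higher and 0 lower (median 0.38), with Dlst and Idh3a at 1.17 and 1.15. These medians lay above that of the OXPHOS genes, 0.046, but the differences between lists were not tested.

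Regulators of mitochondrial gene expression had 6 of 11 tested members higher and 1 lower, 63.6% called beside 52.4% of all genes. Pprc1, a PGC-1-related coactivator, was 3.17-fold higher, from 30.8 ± 7.33 CPM in GMP (SD, n = 3), a log2 fold change of 1.67 ± 0.218 (SE, edgeR adjusted p = 1.70e-06). Tfam, which packages and transcribes mitochondrial DNA, had a log2 fold change of 0.96, and Ppargc1b of 1.55. Of 20 tested assembly factors from a list without the Ndufaf genes, 3 were higher and 1 lower (20% called). Among them was Cox10, a heme A synthesis enzyme, at 0.65. That list was drawn up for complexes I to V, complex I included. Genes of the mitochondrial genome had 4 of 20 higher and 8 lower (60% called, median -0.24). The subunit gene mt-Nd1 was 2.10-fold higher in CFU-E, and the transfer RNA genes mt-Tm, mt-Tp and mt-Tv were lower (log2 fold changes -2.45, -1.43 and -2.50).

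Glycolytic genes were mostly higher in GMP. Of 13 tested glycolytic genes, 2 were higher in CFU-E and 8 lower, 76.9% called beside 52.4% of all genes. Pkm2, the M form of pyruvate kinase, was at 3.51 ± 2.03 CPM in CFU-E and 548.9 ± 116.3 in GMP (log2 fold change -7.25, edgeR adjusted p = 2.54e-13). The list did not include Pklr, the other pyruvate kinase gene, so the enzyme as a whole was not compared. Hk2, a hexokinase, was at means of 10.9 and 205.2 CPM. The myeloid hexokinase Hk3 was at means of 0.0699 and 56.6 CPM. Pfkm, the muscle form of phosphofructokinase, was at 66.4 ± 6.60 CPM in CFU-E and 2.07 ± 0.882 in GMP. These are differences of far greater size than any among the OXPHOS genes, whose log2 fold changes lay between -1.07 and 2.65.

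Between KO and WT, no OXPHOS gene passed the threshold in any population. In GMP, 84 genes were tested and edgeR, DESeq2 and limma-voom each called 0 (edgeR over 9969 genes, of which 1.45% were called). By edgeR, 6 of the 84 had an unadjusted p under 0.05, beside 1789 of the 9969. The log2 fold change of KO over WT was negative for 67 of the 84 and positive for 17, with a median of -0.24 beside 0.015 over all genes tested. KO and WT libraries did not overlap for 13, 11 lower and 2 higher. Over all genes tested 16.8% did not overlap, 11.2% lower and 5.54% higher, so the share of OXPHOS genes without overlap was near the background. The median was -0.36 in complex IV, -0.29 in complex III with all 9 genes negative, -0.28 in complex II with all 4 negative, -0.23 in complex I and -0.16 in complex V, and it was 0.071 for complex I assembly factors.

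The lower values in GMP KO were most marked in GMP KO 4. Taken per library as the median deviation of the 84 genes from the WT mean on a log2(CPM + 1) scale, KO 4 stood at -0.71, and KO 1, KO 2 and KO 3 at -0.26, -0.13 and -0.16. The WT libraries themselves stood at -0.21, 0.031 and 0.24, so 3 of 4 KO libraries lay within or just below the WT range. In KO 4, 58 of the 84 genes were below every WT library, and in KO 1, KO 2 and KO 3 41, 20 and 23. Without KO 4 the median log2 fold change was -0.13. Without KO 1 and KO 4, the KO libraries with the lowest OXPHOS medians, it was -0.11, and that choice, made after seeing the data, fixes the direction of the move. Other genes with short transcripts moved with the OXPHOS genes: over 1797 genes in the shortest of 5 equal bins of transcript length, KO 4 stood at -0.38, KO 1 at -0.18 and WT 3 at 0.14. Of the 83 OXPHOS genes with a known length, 62 are in that bin, and over all other genes the median log2 fold change ran from -0.10 in the shortest bin to 0.17 in the longest. Depth (1250683 to 3471881 in KO, 3732769 to 4401993 in WT) and the 5 mature neutrophil transcripts, none of them at 0 (75554 to 134429 CPM in KO, 174526 to 236038 in WT), also moved with the label. With GMP counts thinned at random to the total of KO 1, 81 OXPHOS genes were tested, 0 were called and the median was -0.19. The part of transcript length and neutrophil transcripts in the result was not tested.

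**Figure D3:**
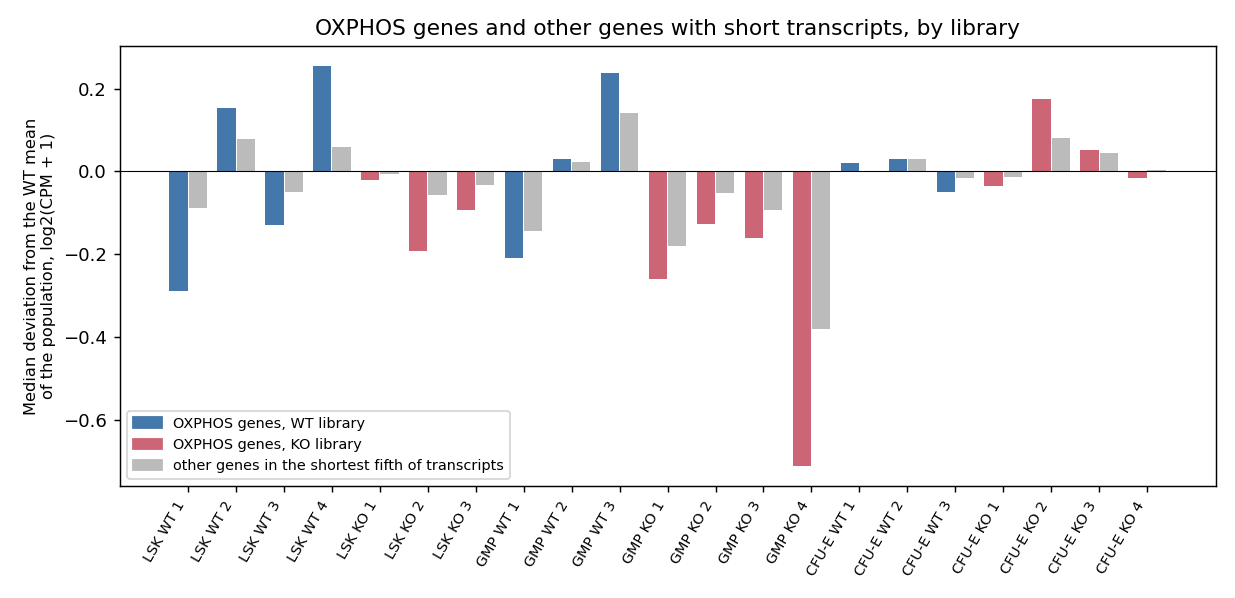
Median deviation of OXPHOS genes (coloured; blue WT, red KO) and of other genes in the shortest of 5 bins of transcript length (grey) from the WT mean of the same population, in log2(CPM + 1), by library. GMP KO 4 is the lowest at -0.71 and -0.38, and in every library whose OXPHOS median deviates by over 0.1 the grey bar has the same sign and is smaller.

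The 3 OXPHOS genes with the smallest p in GMP were Atp5l2, Cox6b1 and Atp5g3. Cox6b1 was at 447.6, 448.6, 439.2 and 232.0 CPM in KO 1 to 4 and at 459.6, 717.9 and 741.5 in WT 1 to 3. The first 3 KO libraries were close to each other and just under WT 1, and KO 4 was far below (log2 fold change -0.63 ± 0.255 SE, edgeR adjusted p = 0.220). Atp5g3, a c-ring gene, was at 803.1, 1059, 875.8 and 541.3 CPM in KO and at 1002, 1381 and 1547 in WT. KO 2 overlapped with WT 1 (log2 fold change -0.60 ± 0.243 SE, edgeR adjusted p = 0.221). Atp5l2, a copy of the gene for subunit g, was at 11.1, 10.3, 18.5 and 29.6 CPM in KO and at 10.3, 7.93 and 7.91 in WT. Its KO libraries were higher, KO 2 only just (log2 fold change 1.11 ± 0.380 SE, edgeR adjusted p = 0.159), and without a filter on low counts it was called (1.08, adjusted p = 0.0473). Its relative Atp5l, named after its values were seen, had a log2 fold change of the other sign, -1.06 (edgeR adjusted p = 0.278). How the authors' counting treated reads that match both copies is not given, so both are uncertain.

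**Figure D4:**
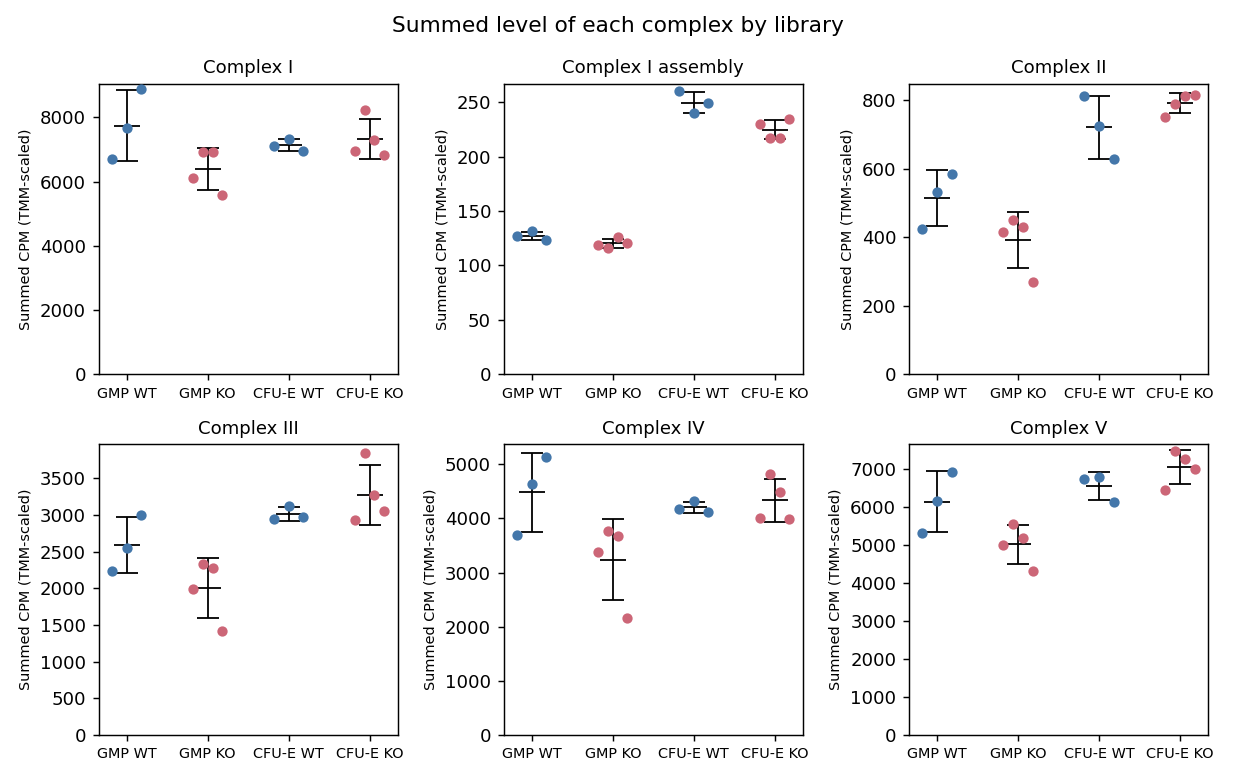
CPM summed over the genes of each complex in each GMP and CFU-E library (points; blue WT, red KO), with the mean and 1 SD; y axes start at 0. GMP KO 4 is the lowest GMP library in complexes I to V, and the complex I assembly sum lies between 115.6 and 131.2 CPM in every GMP library and between 217.1 and 259.8 in every CFU-E library.

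Summed over genes, complex III stood at 1989, 2330, 2270 and 1424 CPM in GMP KO 1 to 4 and at 2229, 2545 and 2997 in WT 1 to 3, and complex IV at 3380, 3761, 3674 and 2152 in KO and at 3692, 4639 and 5128 in WT. In both, KO 2 lay above WT 1 and the groups overlapped. All OXPHOS genes together made up at most 1.78% of the counts in GMP KO, 1.95% in GMP WT, 2.70% in CFU-E KO and 2.48% in CFU-E WT libraries, and at least 1.38% in GMP and 2.28% in CFU-E libraries.

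In CFU-E, the KO libraries showed no called change of an OXPHOS gene. Of 86 tested, 0 were called by edgeR, DESeq2 or limma-voom (edgeR with a flow cell term over 10170 genes, of which 1.06% were called). By edgeR, 1 of the 86 had an unadjusted p under 0.05, beside 999 of the 10170. The median log2 fold change was 0.060, beside 0.0043 over all genes, with 55 positive and 31 negative, and the median absolute value was 0.099, beside 0.19 over all genes. The median turned to -0.068 without WT 3 and to -0.081 within the flow cell that holds KO 1, WT 1 and WT 2. KO and WT did not overlap for 2 genes, Sdha (log2 fold change 0.13) and Ndufs4, both higher, where the share over all genes was 11.6% in either direction. By library, CFU-E KO 2 stood apart, with a median deviation of 0.17 and 47 of the 86 genes above every WT library, while the other KO libraries lay between -0.035 and 0.051 and WT between -0.050 and 0.031. The median log2 fold change without KO 2 was 0.0062. Megakaryocyte markers moved with the label, the 5 summing to between 353.7 and 816.8 CPM in KO, highest in KO 2, and to between 103.8 and 228.9 in WT, and the 10 erythroid markers summed to between 7265 and 7838 CPM in KO and between 6327 and 7135 in WT, with none of either list at 0. Their part in the result was not tested.

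Cox6b2, the gene that most separated the populations, was at 106.5, 117.9, 115.6 and 109.0 CPM in CFU-E KO 1 to 4 and at 103.2, 140.5 and 163.9 in WT 1 to 3. All KO libraries lay within the WT range (log2 fold change -0.36 ± 0.152 SE, edgeR adjusted p = 0.428). Ndufs4, an accessory subunit of the NADH arm of complex I, was at 115.3, 124.4, 107.5 and 110.9 CPM in KO and at 90.0, 96.2 and 95.9 in WT. The KO libraries were all above WT, but the difference did not pass the threshold (log2 fold change 0.28 ± 0.140 SE, edgeR adjusted p = 0.550). Ndufaf4 was at 128.3, 110.9, 125.8 and 144.8 CPM in KO and at 152.4, 142.9 and 156.0 in WT (log2 fold change -0.25 ± 0.146 SE, edgeR adjusted p = 0.640). KO 4 overlapped with WT 2.

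LSK libraries were sequenced over full transcripts and most deeply. There, 89 OXPHOS genes were tested and 0 were called by edgeR, DESeq2 or limma-voom (edgeR over 17664 genes, of which 0.0793% were called). By edgeR, 1 of the 89 had an unadjusted p under 0.05, beside 1392 of the 17664. The log2 fold change was negative for 69 and positive for 20, with a median of -0.10, beside 0.0044 over all genes. KO and WT libraries did not overlap for 1 gene, Cox6a2, while the share was 7.89% over all genes. The medians by complex ran from -0.15 in complex IV to -0.038 in complex II.

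The WT libraries of LSK were spread more than the KO libraries. Their median deviations were -0.29, 0.15, -0.13 and 0.25 for WT 1 to 4, and all 3 KO libraries, at -0.020, -0.19 and -0.092, lay inside that range. Mature neutrophil transcripts summed to 317.8, 7942, 1381 and 4311 CPM in WT 1 to 4 and to 657.1, 949.8 and 1585 in KO 1 to 3, all 5 above 0. WT 2 and WT 4 were highest in both measures. Among the KO libraries the measures did not run together: KO 1 was lowest in these transcripts and highest in the OXPHOS median. Transcripts of 5 B cell markers differed as well, from 1349 to 30443 CPM in WT and from 4905 to 59079 in KO, with overlap. Without WT 2 and WT 4, a choice made after seeing the data, the median turned to 0.11. They are also the WT libraries highest in OXPHOS genes, so the direction of this move follows from the choice. The part of other cells in the LSK values was not tested.

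Cox6a2, the heart and muscle form of a complex IV subunit, had the smallest p in LSK, at 0.653, 0.457 and 0.383 CPM in KO 1 to 3 and at 0.848, 1.96, 1.67 and 0.819 in WT 1 to 4. KO was lower without overlap at a level near the detection limit (log2 fold change -1.39 ± 0.446 SE, edgeR adjusted p = 0.440). Ndufb3 was at 54.3, 46.8 and 48.1 CPM in KO and at 47.5, 73.3, 53.3 and 84.0 in WT, again with WT 2 and WT 4 the highest (log2 fold change -0.37 ± 0.202 SE, edgeR adjusted p = 0.748). Atp5s overlapped too, with KO libraries at 34.5, 30.9 and 27.2 CPM and WT libraries at 32.9, 47.2, 32.8 and 39.3 (log2 fold change -0.30 ± 0.169 SE, edgeR adjusted p = 0.776).

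**Figure D5:**
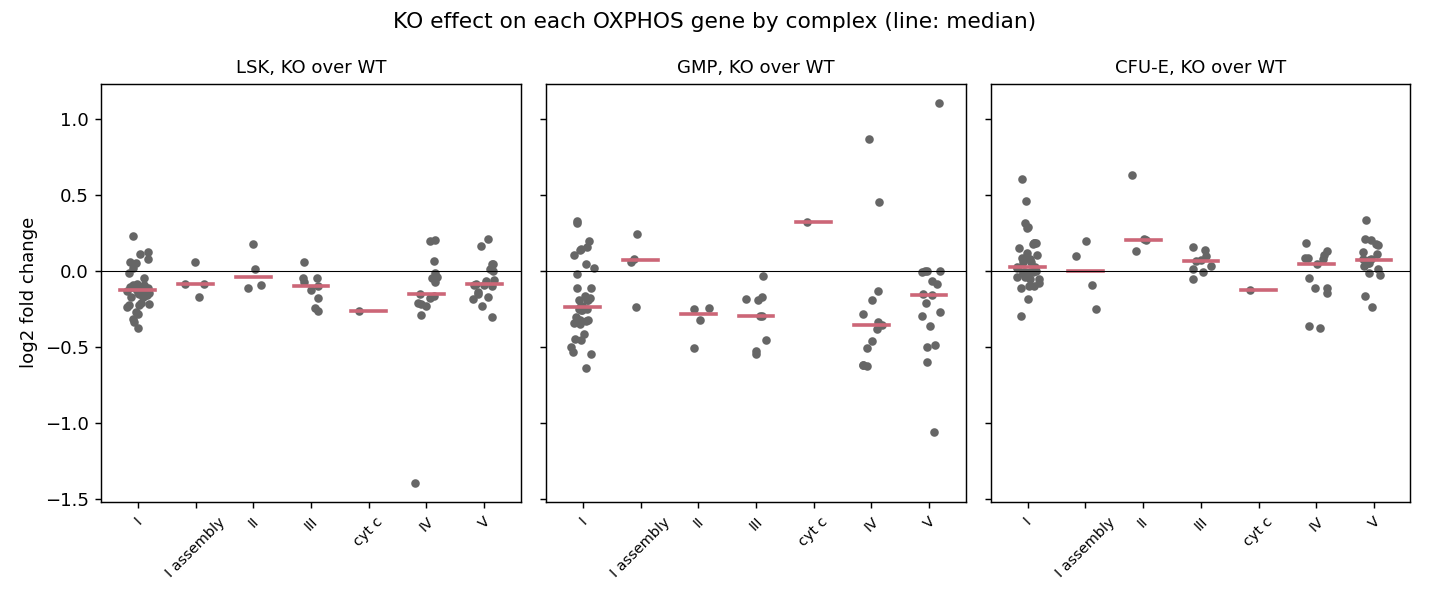
Log2 fold change of KO over WT for each tested OXPHOS gene in LSK, GMP and CFU-E (points), by complex, with the median as a red line. The GMP points are spread most and lie mostly below 0, with a median of -0.24, those of CFU-E lie around 0.060 and those of LSK around -0.10.

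Whether the KO effect differed between CFU-E and GMP was tested as an interaction over all 14 of their libraries. Of 86 OXPHOS genes 0 were called by edgeR, DESeq2 or limma-voom (edgeR over 11006 genes, of which 0.445% were called). By edgeR, 6 of the 86 had an unadjusted p under 0.05, beside 1501 of the 11006. The difference, CFU-E minus GMP, was positive for 73 and negative for 13, with a median of 0.39, beside 0.095 over all genes. The OXPHOS median was 0.18 without CFU-E WT 3. Over other genes, the median was 0.22 in the shortest of 5 bins of transcript length and -0.10 in the longest. Of the 85 OXPHOS genes with a known length, 64 are in the shortest bin, with a median of 0.41. The part of transcript length in the difference was not tested. The smallest p values were those of Atp5g3 (difference in log2 fold change 0.89 ± 0.342 SE, edgeR adjusted p = 0.285), Atp5l2 (-1.26 ± 0.520, adjusted p = 0.308) and Ndufa8 (0.88 ± 0.390, adjusted p = 0.330). Both comparisons have their own WT libraries, and the flow cell term rests on CFU-E, since all GMP libraries share 1 flow cell.

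The lists of other mitochondrial genes held no call in a KO comparison by edgeR, and the glycolysis list held 1. Hk3 had a mean of 21.1 CPM in GMP KO (SD 4.72, n = 4) and of 56.6 in GMP WT (SD 17.8, n = 3), a log2 fold change of -1.34 ± 0.269 (SE, edgeR adjusted p = 0.0217). Transcripts of the mitochondrial genome had the opposite sign to the nuclear OXPHOS genes in GMP KO, with 20 of 21 positive and a median of 0.43 against -0.24. In LSK both were mostly negative, with 1 of 31 mitochondrial transcripts positive and a median of -0.30 against -0.10. In CFU-E both medians were positive, with 12 of 20 mitochondrial transcripts positive and a median of 0.10 against 0.060. By edgeR 0 of these transcripts were called in any population, with 7 at an unadjusted p under 0.05 in GMP, 0 in LSK and 2 in CFU-E. Over all genes tested it was 1789 of 9969 in GMP, 1392 of 17664 in LSK and 999 of 10170 in CFU-E. The difference between the lists was not tested. The import list in GMP KO had 1 of 16 genes positive and a median of -0.33, the assembly factors 4 of 19 and -0.24, and the mitochondrial ribosome 24 of 70 and -0.21. The citric acid cycle list had 5 of 16 positive and a median of -0.10, and glycolysis 1 of 12 and -0.26. Regulators of mitochondrial gene expression had 8 of 10 positive and a median of 0.27.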

How the data were processed

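The deposited values are whole-number read counts per gene for 21 libraries, which the authors did not normalize. STAR 2.4, HTSeq 0.6.1, DESeq2 and build mm9 are named in the submitters' processing notes. Which annotation and strand setting served for counting was not given, so values of overlapping or antisense genes and of near-identical copies are uncertain. The reference at hand is of another build and gave transcript lengths and RefSeq promoters only. Of the 93 genes, those passing filterByExpr (minimum count 10, minimum total 15) were tested with edgeR 4.0.16 in R 4.3.3: its quasi-likelihood test after TMM scaling, with p adjusted by Benjamini and Hochberg over all genes tested and a threshold of 0.05. Each SE was obtained as the absolute log2 fold change over the root of the F statistic. The KO fit in CFU-E and the interaction carried a flow cell term: all GMP libraries, CFU-E KO 1, WT 1 and WT 2 share one flow cell, and the other CFU-E libraries another. Printed CPM levels use TMM factors over 14 or 7 libraries, which differ slightly from those inside each fit. Limits from a count of 0 cover counting error only, since reads without molecular identifiers are not independent molecules. No replicate pair agreed within sampling noise (chi-square per degree of freedom at least 4.03).

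Genes were named by a rule: per complex and direction the 4 called genes with the smallest p in the WT comparison, the Sdh genes, Cyc1, Cycs and subunits with tissue forms, the 3 smallest p in each KO comparison, and up to 4 called genes of each other list. Most exceptions are marked where they stand. Ndufaf2 in the WT comparison and Sdha in the KO comparison of CFU-E are exceptions without a mark. The genes, the lists and the rule were chosen with earlier results of these data known. Alternatives were RLE, upper-quartile or no scaling factors, DESeq2 1.42.0, limma-voom 3.58.1, no or a stricter filter (minimum count 30), each library left out, a replicate block, flow cell A alone, GMP libraries thinned to equal depth, and 2 sets of libraries left out after seeing the data, when the block in the interaction was also added. The fits were tested on simulated data. Per-library deviations use log2(CPM + 1).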

Additional observations from a re-analysis of the deposited data

Results flagged for a closer look

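Within groups of 4 libraries, 39 sets of values were examined for a library far from the others, and chance marks about 1 in 20 of them. The single one marked was Cox6b1 in GMP KO 4, at 232.0 CPM, while the other GMP KO libraries lay between 439.2 and 448.6. GMP KO 4 also had the lowest median over the OXPHOS genes, -0.71 from the WT mean.

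The summed level of complex II moved in opposite directions in the KO of the 2 populations. So did the means of complexes I, III, IV and V, each above WT in CFU-E KO and below WT in GMP KO. The complex II sum was 70.9 CPM above the mean of WT in CFU-E. In GMP it was below that mean by a signed difference of -123.8 CPM. Each KO library was on the same side of the WT mean as its group's mean. The WT libraries ran from 627.1 to 811.7 CPM in CFU-E and from 425.3 to 585.7 in GMP. The KO libraries ran from 752.3 to 814.1 CPM in CFU-E and from 269.6 to 449.5 in GMP, so KO and WT overlapped in both. GMP KO 4 was the lowest. This difference between populations was not tested as a sum. No single complex II gene was called in the interaction (edgeR, 0 of 4, also 0 at an unadjusted p under 0.05).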

How the results depend on the processing

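In WT CFU-E against WT GMP, total counts alone gave 40 OXPHOS genes higher, 4 lower and a median log2 fold change of 0.52 (0.49 over all genes), and turned Cox4i1 (0.22), Cox6b1 (0.27), Cox7a2 (0.086), Cox7a2l (0.087) and Cox8a (0.34) positive. Within flow cell A, the same fit as without CFU-E WT 3, 7 were lower. Leaving out single libraries gave 9 to 19 higher, 7 to 23 lower and a median of -0.14 to 0.087. Sdhc then ran from -0.042 (without GMP WT 1) to 0.59 and Cox8a from -0.42 to 0.10 (without GMP WT 3). In KO against WT the median ran from -0.068 to 0.12 in CFU-E when single libraries were left out and was -0.081 within flow cell A. In LSK it was 0.11 with WT 2 and WT 4 both left out, a choice made once the data had been seen. The interaction median was 0.17 with total counts alone (-0.12 over all genes) and ran from 0.18 to 0.49 when single libraries were left out. In GMP, no filter on low counts gave 1 gene called higher, Atp5l2. The cause of these changes was not tested. The median in GMP KO was negative in all 17 alternatives. Whether replicate numbers mark a pairing is not known. GMP and CFU-E libraries of the same genotype and number share a suffix in their count labels, whose meaning is not given. Same-numbered libraries did not all correlate above 0.1 in their deviations in any comparison, which cannot settle it with so few libraries. With a replicate block, 21 genes were called in the WT comparison (12 higher, 9 lower), all 21 among the 28, and the KO medians were -0.0095 (LSK), -0.14 (GMP) and 0.021 (CFU-E, flow cell term kept). The block changed no count of KO calls, nor, with the flow cell term and added after seeing the data, that of the interaction, whose median was 0.42. With GMP libraries thinned to the shallowest, 1250683 counts, fewer OXPHOS genes, 81, could be tested, and 0 were called.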
